A study of Neurospora crassa with 84 samples.

Results

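The step from day 0 to day 1 of a cross was followed in light-grown ∆ve-1 cultures of the filamentous fungus Neurospora crassa. It was represented by 6 of the 84 RNA-seq libraries of the series, chosen by their labels alone. Of these, 3 came from ∆ve-1 in light on day 1, which was 1 day after the cross. The other 3 came from ∆ve-1 in light on day 0, sampled just ahead of the cross. ∆ve-1 was a mat A strain from which the ve-1 gene had been deleted, and it served as the female parent on a nitrogen-poor crossing medium. The male cells were conidia of the wild-type mat a strain, applied to the plate surface in a Tween suspension. The same step was compared in dark-grown ∆ve-1 cultures and in wild type mat A in light, with 3 libraries on each day, the same medium and the same male. Days -2, -1, 2, 4 and 6 of the same conditions gave the course around the step.

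Neurospora forms protoperithecia, the unfertilized female organs, when nitrogen is scarce. A protoperithecium sends out a receptive hypha that grows along the pheromone gradient of a cell of the opposite mating type, and after fusion it enlarges into a dark, melanized perithecium in which meiosis takes place. VE-1 belongs to the velvet proteins, fungal regulators that link light to the balance between sexual and asexual reproduction. The question put to these libraries was how much of the transcript change that follows the cross was still present without VE-1 in light, a condition in which wild type and mutant develop differently.

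The study's methods state in general terms that RNA quantification used independent biological replicates. They also say that biological replicates were pooled at each sampling point before RNA extraction. The labels do not tie the 3 libraries of a group to separate cultures. The p-values below therefore measure the spread between libraries, which may be in part technical. No culture wetted without conidia was used here, so that the cross itself, the wetting with detergent and 1 more day of age cannot be told apart. RNA of the applied conidia was harvested with the female tissue, and these conidia carry an intact ve-1 gene and the mat a genes. In such bulk samples, fewer cells of a type and less RNA per cell cannot be told apart either.

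The 6 libraries held between 15917300 and 18376000 counts each and 9343 to 9513 detected genes, with 0.40 to 0.60% of counts on ribosomal RNA. The 10 most abundant genes took 17.2 to 19.0% of the counts on day 1 and 10.2 to 15% on day 0. Levels are given in CPM, the count of a gene relative to the total of its library after scaling by the trimmed mean of M-values. At this depth a count of 0 in 1 library allows a level of up to 0.163 to 0.188 CPM, which covers counting error only. The deleted gene, ve-1 (NCU01731), stood at 10.3, 13.8 and 9.42 CPM on day 1 and at 14.9, 14.9 and 8.43 CPM on day 0 in the mutant in light. Wild-type libraries from light had 333 to 421 CPM on day 1 and 266 to 455 CPM on day 0, so the labels of the mutant held in all 6 libraries.

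Marker genes were summed to see what the harvested tissue contained. The 6 conidial markers (eas, con-6, con-8, con-10, con-13 and fl) summed to between 71756 and 92727 CPM on day 1 and between 47924 and 72429 CPM on day 0, whereas in wild type in light they summed to between 10146 and 23463 CPM on day 1 and between 44087 and 73034 CPM on day 0. The 5 markers of the mat A parent (ccg-4, pre-1 and the 3 mat A genes) summed to between 73669 and 80598 CPM on day 1 and between 13644 and 43570 CPM on day 0. Nearly all of it came from ccg-4, the pheromone gene of mat A cells. These genes mark the mating type of the female parent and do not measure its female organs. The 9 light-regulated genes summed to between 8534 and 9051 CPM on day 1 and between 5017 and 7714 CPM on day 0 in light, above the 1943 to 2540 CPM of day 1 and the 970 to 2439 CPM of day 0 in dark-grown ∆ve-1. The 4 perithecial markers (per-1, asd-1, asd-3 and app) summed to between 355 and 379 CPM on day 1 and between 110 and 206 CPM on day 0. In wild type in light they summed to between 4042 and 4172 CPM on day 1 and between 411 and 765 CPM on day 0. Most of this wild-type day 1 sum came from per-1 alone, which had 3754 to 4010 CPM, against 40.4 to 57.3 CPM on day 0. No marker was at 0 in any of these groups, and the part of these shifts in the results below was not tested.

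A gene was called when its adjusted p was under 0.05 and its change exceeded 1 on the log2 scale. The p-values came from edgeR's quasi-likelihood test with Benjamini-Hochberg adjustment over the 9701 genes that passed a filter on low counts. In ∆ve-1 in light, 265 genes were called between day 1 and day 0, or 2.73% of those tested. Of these, 222 rose (2.29%) and 43 fell (0.443%), so that 83.8% of the calls were upward, against 71.4% when libraries were scaled by their totals alone, which shifted the median of all genes by -0.10. The libraries of both days did not overlap in 220 of the 222 and in 39 of the 43, and over all tested genes this was the case in the upward direction for 16.3% and in the downward direction for 13.9%. The day 0 libraries were unequal. Among the 222 genes that rose, the lowest day 0 level was in replicate 2 for 146, in replicate 1 for 52 and in replicate 3 for 24. Without day 0 replicate 2 the same test called 130 genes, 116 higher and 14 lower, of which 129 were among the 265.

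More genes were called for the same step in the other conditions. Wild type in light had 2129 calls (21.9%), of which 1494 rose (15.4%) and 635 fell (6.55%). Dark-grown ∆ve-1 had 1074 calls (11.1%), of which 867 rose (8.94%) and 207 fell (2.13%), but with the 2 groups of the dark step fitted alone these counts were 669, 606 and 63. Leaving out 1 dark library at a time gave 112 (without day 0 replicate 1) to 332 (without day 0 replicate 3) genes that fell. Wild type in the dark had 13.2% of its genes called, 888 upward and 390 downward. Over all tested genes the root mean square distance between the mean log2 levels of day 1 and day 0 was 0.561 in light-grown ∆ve-1, 1.02 in dark-grown ∆ve-1 and 1.45 in wild type in light. Single day 0 libraries were 0.464 to 0.545 apart in light-grown ∆ve-1, 0.606 to 0.894 in dark-grown ∆ve-1 and 0.410 to 0.620 in wild type in light. The latter are distances between single libraries and not between means of 3.

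The steps just before and just after this one held no calls in ∆ve-1 in light. Between day 0 and day -1 edgeR called 0 genes in ∆ve-1 in light, with 381 at an unadjusted p under 0.05, and DESeq2 called 0 as well, with 421 at that level. Between day 2 and day 1 edgeR and DESeq2 again called 0 each, with 238 and 285 at an unadjusted p under 0.05. The distance between mean log2 levels was 0.275 from day -1 to day 0 and 0.296 from day 1 to day 2. These neighbouring comparisons share the day 0 or the day 1 libraries with the step. Between day -1 and day -2, also before the cross, edgeR called 22 genes higher and 51 lower (0.752%). There 1357 genes had an unadjusted p under 0.05.

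**Figure D1:**
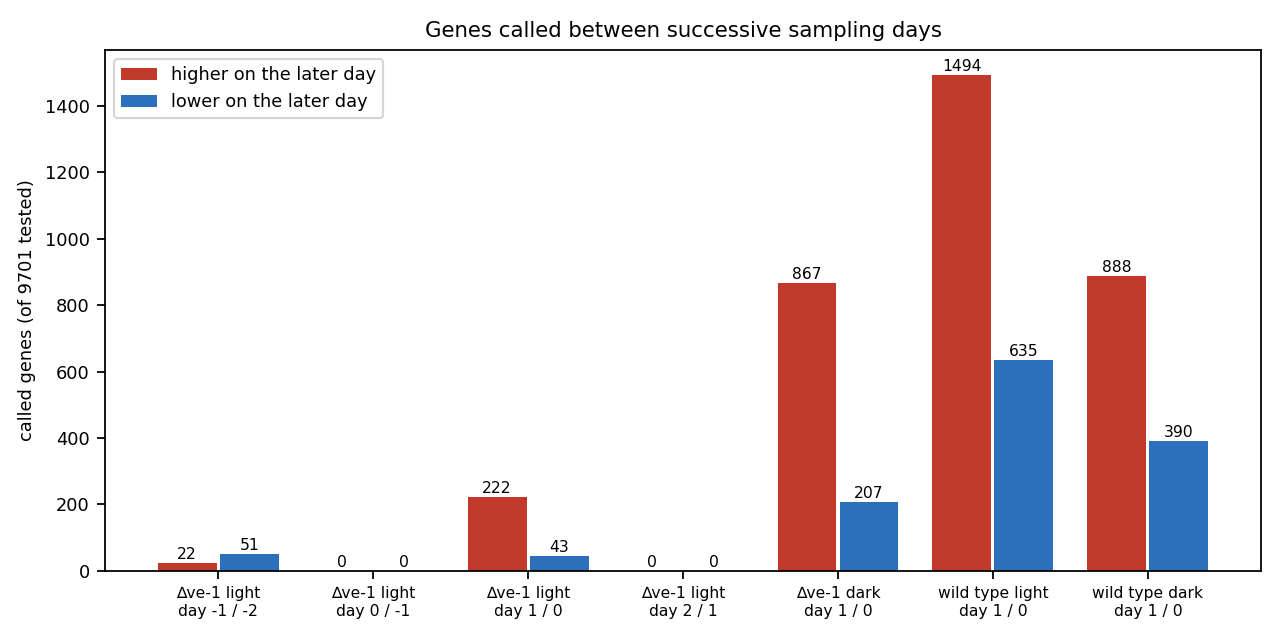
Genes that rose (red) or fell (blue) on the later of 2 sampling days, for 4 successive steps in light-grown ∆ve-1 and for day 1 over day 0 in dark-grown ∆ve-1, wild type in light and wild type in the dark. The step after the cross has 222 and 43 calls in ∆ve-1 in light, with 0 called on the steps just before and just after it. From day -2 to day -1 there are 22 and 51 calls in ∆ve-1 in light. Wild type in light has 1494 and 635 calls on the step after the cross.

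The pheromone genes were read first, because the cross brings cells of both mating types together. mfa-1 (NCU16992, chromosome V, 3396270 to 3397430 in the NC12 assembly), which encodes the pheromone of mat a cells, had 171, 122 and 409 CPM on day 1 and 14.4, 15 and 10.5 CPM on day 0 in ∆ve-1 in light. All day 1 libraries were above all day 0 libraries, and the gene rose by 4.13 on the log2 scale (SE 0.455, adjusted p = 3.36e-09). In the wild-type cross in light mfa-1 reached 1459, 1796 and 2852 CPM on day 1, against 10.3, 16.7 and 9.46 CPM on day 0. The step in the ∆ve-1 cross was smaller by 3.25 on the log2 scale (SE 0.585, adjusted p = 2.35e-05 for the difference). Every female was mat A and the applied conidia were mat a, and how much of this transcript came from the conidia was not tested. The difference from dark-grown ∆ve-1 was -1.42 (adjusted p = 0.165). The level in ∆ve-1 in light then stood at 624 ± 207, 922 ± 241 and 1407 ± 1411 CPM on days 2, 4 and 6 (SD, n = 3 each). The day 6 libraries had 588, 598 and 3036 CPM, so that their mean rests largely on replicate 3. The name follows RefSeq, while a supplementary table of the study gives it to another gene, NCU00137. mfa-1 was the sole gene called among the 16 of the mating pheromone list, against 2.29% of all tested genes that rose, and it was also called without day 0 replicate 2.

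ccg-4 (NCU02500), which encodes the pheromone of mat A cells, was already abundant before the cross in ∆ve-1 in light. It had 80302, 73362 and 79673 CPM on day 1 and 43310, 13481 and 18384 CPM on day 0. The libraries did not overlap, but the spread on day 0 was wide and the change of 1.63 did not pass the test (SE 0.991, adjusted p = 0.337). Wild-type ccg-4 in light reached 47023 to 80580 CPM on day 1, against 400 to 3748 CPM on day 0. Its day 1 levels in the mutant lay within the wild-type range of that day, while on day 0 every ∆ve-1 library was above every wild-type library.

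None of the remaining members of the list was called. pre-1, the receptor through which mat A cells sense the mat a pheromone, was at 20.4, 19.9 and 22.9 CPM on day 1 and at 19.4, 14.8 and 12.9 CPM on day 0 (0.42, adjusted p = 0.522). fmf-1, a gene needed in both parents for perithecia to develop, had 136, 137 and 159 CPM on day 1 and 52.1, 12.9 and 27.4 CPM on day 0, and its change of 2.23 missed the threshold (adjusted p = 0.0677). mat A-2 had 11.8, 9.54 and 10.6 CPM on day 1, against 5.58, 2.30 and 4.07 CPM on day 0 (1.42, adjusted p = 0.0897). The G protein subunits gna-1, gnb-1 and gng-1 and the kinases nrc-1, mek-2 and mak-2, which carry the pheromone signal, were between -0.40 and 0.02 on the log2 scale and none was called.

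Perithecial melanin is made from a polyketide that is reduced and dehydrated in turn. The polyketide synthase gene per-1 (NCU03584, chromosome V, 1714456 to 1721951) had 243, 254 and 244 CPM on day 1 and 23.6, 19.5 and 52.1 CPM on day 0, and it rose by 2.96 on the log2 scale (SE 0.709, adjusted p = 0.0048). The tetrahydroxynaphthalene reductase gene tnr-2 had 84.8, 85.9 and 82.5 CPM on day 1 and 17.8, 14.6 and 27.9 CPM on day 0 (2.07, adjusted p = 0.0134). The scytalone dehydratase gene scy-1 had 97.2, 88.8 and 115 CPM on day 1 and 51.3, 38.7 and 48.0 CPM on day 0 (1.12, adjusted p = 0.0438). The other reductase gene, tnr-1, was not called (1.09, adjusted p = 0.0531).

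Of the 4 melanin genes, a family picked after its calls were seen, 3 rose, against 2.29% of all tested genes. In each of the 3 the day 1 libraries lay above those of day 0, as they did in 16.3% of all tested genes. All 3 calls were lost without day 0 replicate 2, where the adjusted p was 0.0655 for per-1, 0.123 for tnr-2 and 0.226 for scy-1. The call of tnr-2 was also lost without day 0 replicate 1 (adjusted p = 0.0628), and that of scy-1 when any 1 of the 6 libraries was left out and with library totals only. Each of the 4 genes had a smaller step than in wild type in light, as did 8.27% of all tested genes. The wild-type level of per-1 reached 3754 to 4010 CPM there on day 1, against 40.4 to 57.3 CPM on day 0, and the difference of the steps was -3.43 (SE 0.958, adjusted p = 0.00646). The differences were -4.15 for tnr-2, -3.43 for tnr-1 and -2.62 for scy-1, with adjusted p of 5.29e-05, 6.12e-07 and 7.53e-05. In ∆ve-1 in light per-1 then stood at 169 ± 48.1, 161 ± 48.4 and 74.9 ± 37.7 CPM on days 2, 4 and 6, whereas in dark-grown ∆ve-1 it reached 834 ± 97.3, 1840 ± 564 and 1701 ± 314 CPM on those days (SD, n = 3 each).

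**Figure D2:**
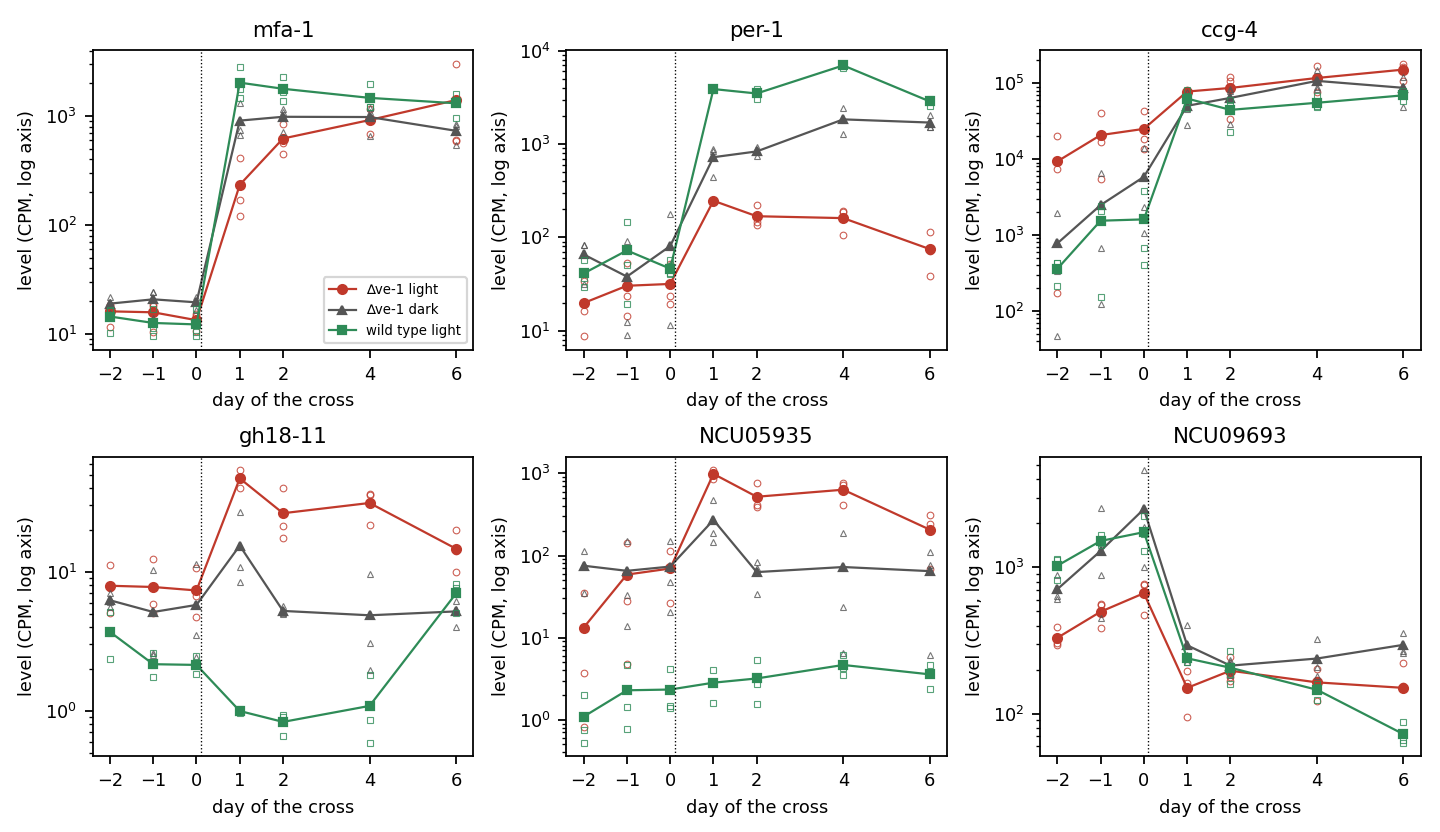
Level in CPM on a log axis against the day of the cross for mfa-1, per-1, ccg-4, gh18-11, NCU05935 and NCU09693 in light-grown ∆ve-1 (red circles), dark-grown ∆ve-1 (grey triangles) and wild type in light (green squares), with small open symbols for the 3 libraries and filled symbols joined by lines for their mean. The dotted line marks the cross, made after the day 0 sampling, and per-1 stays below both other conditions from day 1 on in ∆ve-1 in light while gh18-11 and NCU05935 lie above both on days 1 and 2.

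Other genes of female development were examined as a list of 13, of which per-1 and asd-3 were called higher and none lower, against 2.29% of all tested genes that rose. asd-3, a gene named for ascus development, had 58.7, 47.9 and 58.1 CPM on day 1 and 27.3, 20.6 and 27.9 CPM on day 0, and its step of 1.12 (adjusted p = 0.000202) differed from that of wild type in light by 0.02. Without day 0 replicate 2 neither per-1 nor asd-3 was called, asd-3 with a change of 0.99, and with library totals only the call of asd-3 was lost at a change just under the threshold. The transcription factor gene fsd-1, named for female sexual development, was not called, with 317, 322 and 274 CPM on day 1 and 416, 348 and 260 CPM on day 0, against 1309 to 1498 CPM on day 1 and 151 to 275 CPM on day 0 in wild type in light. The difference of the fsd-1 steps was -2.97 (SE 0.294, adjusted p = 5.75e-12).

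gpr-1, a G protein-coupled receptor gene, was not called either. It had 18.5, 19.5 and 17.1 CPM on day 1 and 16.8, 12.2 and 17.9 CPM on day 0 in ∆ve-1 in light, whereas wild type in light had 261 to 318 CPM on day 1 and 9.38 to 21.9 CPM on day 0. The difference of the steps was -4.13 (SE 0.507, adjusted p = 4.85e-09). In all, 5 of the 13 genes (fsd-1, gpr-1, per-1, pig-1 and mld-1) had a smaller step than in wild type in light, where 8.27% of all tested genes did, and none had a larger one. The same 5-of-13 count was obtained without day 0 replicate 2.

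Chitinases degrade the chitin of the fungal wall. Among the 11 genes of glycoside hydrolase family 18, a family picked after its calls were seen, 4 rose and none fell, against 2.29% of all tested genes that rose. gh18-11 (NCU12033, chromosome VII, 1110919 to 1112652), a class III chitinase gene, had 53.8, 40.0 and 47.1 CPM on day 1 and 6.65, 4.71 and 10.7 CPM on day 0, and it rose by 2.68 (SE 0.481, adjusted p = 0.000111). Wild-type gh18-11 in light had 0.964, 0.990 and 1.04 CPM on day 1 and 2.47, 2.11 and 1.84 CPM on day 0. The step was larger in ∆ve-1 in light by 3.77 (SE 0.725, adjusted p = 6.78e-05), and the wild-type step itself was not called (-1.10, adjusted p = 0.103).

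gh18-2 gave a similar picture in the mutant, with 69.2, 48.8 and 68.3 CPM on day 1 and 5.83, 2.62 and 6.88 CPM on day 0 (3.60, adjusted p = 0.00221). The wild-type libraries from light were at or under 0.516 CPM on both days, and the difference of the steps was not called (4.10, adjusted p = 0.0841). gh18-1 and gh18-8 rose from low levels, with 2.08 to 2.82 CPM on day 1 and 0.268 to 0.573 CPM on day 0 for gh18-1, and with 0.769 to 1.36 CPM on day 1 and 0.161 to 0.439 CPM on day 0 for gh18-8. Both lost their call without day 0 replicate 2, where gh18-11 and gh18-2 were still called, and gh18-8 lost it also without day 1 replicate 1 or day 0 replicate 3. chit-1 and gh18-4, which fell in wild type in light by 5.40 and 3.65, gave 0.15 and 1.02 in ∆ve-1 in light and were not called there, and their steps differed between strains by 5.55 and 4.67 (adjusted p = 1.14e-05 and 0.000409).

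Over all 142 tested glycoside hydrolases 10 rose and 1 fell, against 2.29% and 0.443% of all tested genes. Besides the chitinases these were gh28-1, gh71-4, gh17-1, gh76-4, gh7-3 and gh11-2. The polygalacturonase gene gh28-1 had 24.7, 20.5 and 26.5 CPM on day 1 and 7.47, 3.05 and 4.19 CPM on day 0 (2.29, adjusted p = 0.00155). gh76-4 had 41.0, 37.7 and 36.7 CPM on day 1, against 15.6, 16.4 and 16.0 CPM on day 0 (1.26, adjusted p = 9.0e-08). gh7-3 and gh11-2 were near the limit of detection, with 15, 16 and 25 counts on day 1 and 0, 0 and 2 counts on day 0 for gh7-3, and with 2, 8 and 2 counts on day 1 and 0 on day 0 for gh11-2. gh93-1, the one that fell, had 2, 1 and 2 counts on day 1 and 2, 13 and 11 counts on day 0. Without day 0 replicate 2 edgeR called 5 higher and 0 lower. The calls of gh11-2, gh93-1, gh17-1 and gh71-4 were lost under 7, 6, 6 and 5 alternatives, which for gh17-1 included the fit with only the groups compared (adjusted p = 0.0939), and for gh71-4 were all leave-outs of 1 library, every one except day 0 replicate 1.

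The carbohydrate esterase gene ce3-3 (NCU06599) was among the more abundant genes that rose. It had 763, 525 and 677 CPM on day 1 and 57.5, 23.9 and 76.5 CPM on day 0, a change of 3.64 (SE 0.825, adjusted p = 0.0026, and 0.0502 without day 0 replicate 2). The wild type in light had 2.16 to 3.29 CPM on day 1 and 2.39 to 4.13 CPM on day 0, and the step was larger in ∆ve-1 by 3.71 (adjusted p = 0.0211).

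The genes with the highest fold changes carried no annotation in most cases. Of the 222 genes that rose, 52 had a symbol, 15 had a product name only and 155 had neither. NCU01351 had 478, 447 and 474 CPM on day 1 and 39.8, 10.9 and 37.4 CPM on day 0 (3.99, adjusted p = 0.00224). NCU05707 had 231, 191 and 200 CPM on day 1 and 34.3, 1.66 and 5.45 CPM on day 0 (3.92, adjusted p = 0.00568), and NCU04934 had 36.4, 39.9 and 43.9 CPM on day 1 and 6.52, 0.535 and 2.06 CPM on day 0 (3.73, adjusted p = 0.000111). In each the day 0 value of replicate 2 was the lowest, and without it the adjusted p was 0.0461 for NCU01351, 0.0796 for NCU05707 and 0.0060 for NCU04934.

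NCU05935 (chromosome VI, 3402225 to 3403847) reached 1096, 863 and 1004 CPM on day 1, against 68.3, 26.7 and 114 CPM on day 0 (3.83, SE 0.990, adjusted p = 0.00976, and 0.11 without day 0 replicate 2). Wild-type libraries from light did not exceed 4.13 CPM on either day, but the difference of the steps was not called (3.55, adjusted p = 0.0737). The difference from dark-grown ∆ve-1 was not called either (1.94, adjusted p = 0.485). NCU09780 rose by 4.15 from a low level, with 12, 11.3 and 14.4 CPM on day 1 and 1.44, 0.321 and 0.401 CPM on day 0 (adjusted p = 0.0123, but 0.115 without day 0 replicate 2 and 0.0507 without day 0 replicate 3).

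Among the other named genes that rose were both tested male barren genes, named for male parents that give barren crosses. mb-2 had 427, 466 and 518 CPM on day 1 and 167, 87.3 and 112 CPM on day 0 (1.95, SE 0.262, adjusted p = 5.75e-07). mb-3 had 114, 107 and 112 CPM on day 1 and 27.0, 10.1 and 20.2 CPM on day 0 (2.54, SE 0.441, adjusted p = 5.53e-05). Their steps differed from those of wild type in light by -0.68 and -0.57, and neither difference was called. Both were called without day 0 replicate 2.

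Septal pore-associated proteins sit at the openings between hyphal compartments. Of 38 such genes 3 rose, against 2.29% of all tested genes. NCU09038 had 142, 138 and 160 CPM on day 1 and 38.5, 18.9 and 22.4 CPM on day 0 (2.46), NCU05034 had 76.0, 74.1 and 78.0 CPM on day 1 and 27.2, 11.1 and 15.5 CPM on day 0 (2.09), and spa-17 rose by 1.15. Of 54 kinase genes with an stk name 4 rose, namely stk-35, stk-53, stk-54 and stk-56, and without day 0 replicate 2 the calls of stk-54 and stk-56 were lost, that of stk-54 also without any 1 of the other libraries except day 0 replicate 1. stk-53 was the most abundant, with 67.9, 63.8 and 68.2 CPM on day 1 and 14.2, 15.4 and 23 CPM on day 0 (1.92, adjusted p = 3.15e-06), and its step was larger than in wild type in light by 1.75 (adjusted p = 0.000893) and larger than in dark-grown ∆ve-1 by 1.64 (adjusted p = 0.0065).

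Members of smaller families were called in pairs, and 2.29% of all tested genes rose. Of 18 multi-drug resistance transporters, which pump small molecules out of the cell, mdr-4 and mdr-5 rose, mdr-4 with 49.0, 54.0 and 54.0 CPM on day 1 and 11.4, 7.70 and 17.3 CPM on day 0 (2.11, adjusted p = 0.000951). Of 9 SET domain genes set-5 and set-7 rose, and of 17 metalloprotease genes mpr-4 and mpr-8 did, and of these 4 genes mpr-4 alone was called without day 0 replicate 2. The calls of set-7 and mpr-8 were also lost without day 0 replicate 1, that of mpr-8 without day 1 replicate 3 and that of set-7 with library totals only. set-5 had 10.1, 7.39 and 13.9 CPM on day 1 and 3.39, 0.268 and 0.860 CPM on day 0 (2.82, adjusted p = 0.00586, and 0.0985 without day 0 replicate 2). tpd-1, listed as terpenoid-1, had 88.9, 96.3 and 156 CPM on day 1 and 24.9, 14.9 and 17.3 CPM on day 0 (2.58, adjusted p = 1.27e-05). The steps of mdr-4, set-5 and tpd-1 were smaller than in wild type in light. Their differences were -2.68, -3.72 and -1.48 (adjusted p = 0.000842, 0.00473 and 0.0481). sms-2, a gene of meiotic silencing, had 20, 97 and 23 counts on day 1 and 5, 0 and 1 counts on day 0. The families in this and the previous paragraphs other than the glycoside hydrolases were picked after their calls were seen, and their counts are a description.

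**Figure D3:**
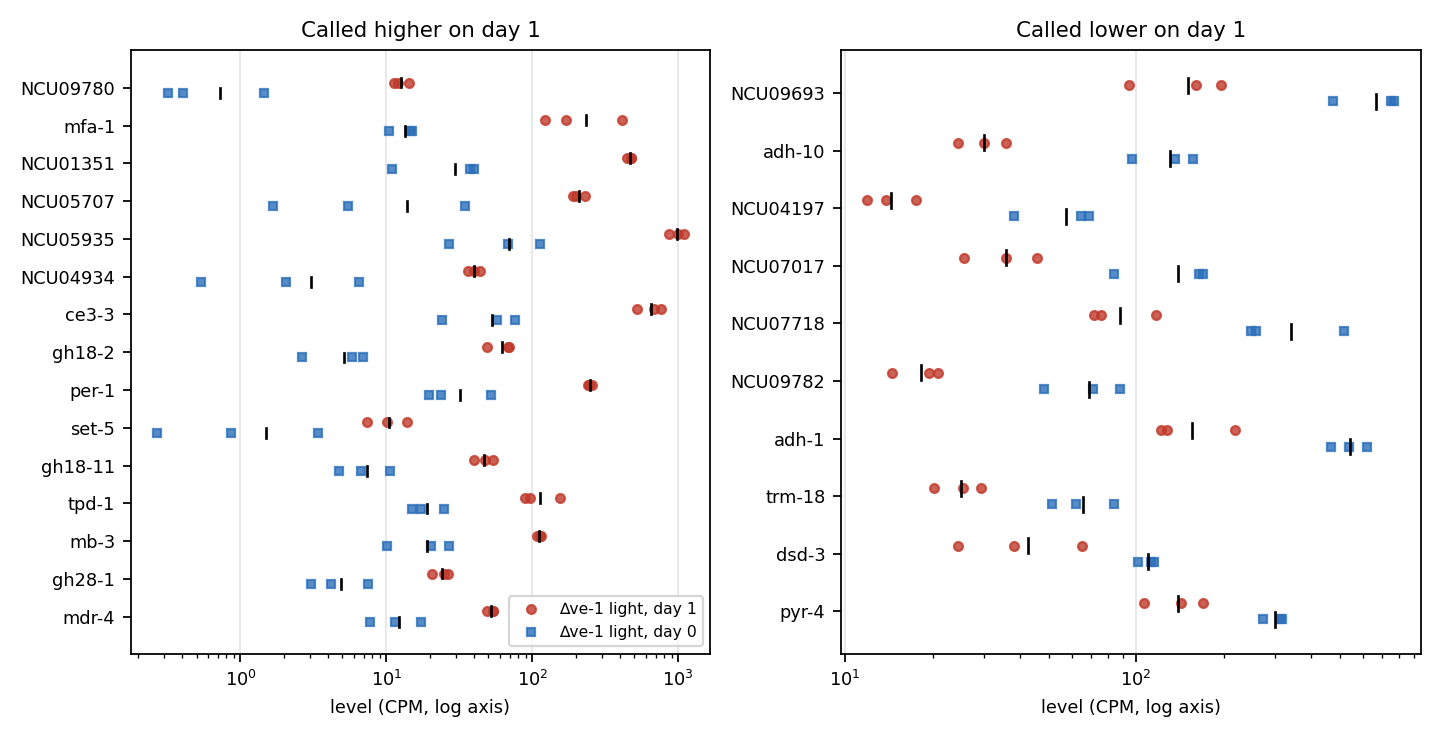
Levels in CPM on log axes of the genes with the highest (left) and lowest (right) fold changes among called genes, in the 3 libraries of day 1 (red circles) and the 3 of day 0 (blue squares) of ∆ve-1 in light, with black ticks at the group means. Only genes whose libraries did not overlap between the days were eligible, so that the days are apart in every gene shown. The day 0 points of NCU05707 are among the most scattered, between 1.66 and 34.3 CPM.

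Fewer genes fell, and by less. Of the 43, 4 changed by more than 2 on the log2 scale and the median was -1.40. NCU09693 (chromosome V, 815771 to 817560), which has no annotation, fell to 94.4, 195 and 161 CPM on day 1, against 473, 772 and 753 CPM on day 0 (-2.15, SE 0.400, adjusted p = 0.000179). The alcohol dehydrogenase gene adh-10 had 24.5, 35.6 and 30.0 CPM on day 1 and 136, 157 and 97.1 CPM on day 0 (-2.12, adjusted p = 0.000456). Both fell also in wild type in light, by 2.86 and 2.73, and in dark-grown ∆ve-1, by 3.09 and 2.42, and both were called without day 0 replicate 2.

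Another alcohol dehydrogenase gene, adh-1, had 122, 218 and 128 CPM on day 1 and 537, 619 and 466 CPM on day 0 (-1.79, adjusted p = 0.025). Its call was lost when day 1 replicate 1, day 1 replicate 3 or day 0 replicate 2 was left out, with an adjusted p of up to 0.128, and its step was lower than in wild type in light by 2.10 (adjusted p = 0.0307). NCU04197, a CipC protein gene, had 17.5, 13.8 and 11.9 CPM on day 1 and 38.1, 69.1 and 64.7 CPM on day 0 (-1.99, adjusted p = 0.00733, but 0.0523 without day 0 replicate 2 and 0.0570 without day 1 replicate 3). trm-18, a calcium-proton antiporter gene, had 20.2, 25.5 and 29.2 CPM on day 1 and 51.2, 84.1 and 62.0 CPM on day 0 (-1.40, adjusted p = 0.000165). pyr-4, which encodes an enzyme of pyrimidine synthesis, had 106, 143 and 170 CPM on day 1 and 273, 316 and 312 CPM on day 0 (-1.10, adjusted p = 0.00923, but 0.0522 without day 0 replicate 2 and 0.0918 without day 1 replicate 1), while in wild type in light it fell by 2.81.

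NCU07017 moved apart from both other conditions. It fell to 25.7, 45.6 and 35.8 CPM on day 1, against 170, 164 and 83.8 CPM on day 0 (-1.96, SE 0.303, adjusted p = 6.69e-06). The wild type in light had 309 to 337 CPM on day 1 and 127 to 255 CPM on day 0, and dark-grown ∆ve-1 had 165 to 213 CPM on day 1 and 127 to 310 CPM on day 0. The step was lower than in wild type in light by 2.83 (adjusted p = 5.22e-07) and lower than in dark-grown ∆ve-1 by 1.97 (adjusted p = 0.00103). NCU07718 and NCU09782, without annotation, fell by 1.95 and 1.92, and dsd-3 fell by 1.36. The call of NCU07718 was lost without day 1 replicate 3 or day 0 replicate 3 (adjusted p of up to 0.0614) and that of dsd-3 without day 1 replicate 1 (adjusted p = 0.0778).

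The gene lists of basic cell functions held no or single calls. Neither edgeR nor DESeq2 called any of the 90 cytosolic ribosomal protein genes, 32 proteasome genes, 29 genes of mitochondrial complex I, 12 DNA replication genes, 7 meiosis genes, 14 genes of nitrogen assimilation or 6 histone genes. At an unadjusted p under 0.05 these lists held 64, 1, 3, 0, 3, 3 and 3 genes by edgeR. The ribosomal protein genes had a median change of -0.47, against 0.00 for all tested genes, and all 64 with an unadjusted p under 0.05 were lower on day 1, but 1 of the 90 passed the adjusted p and none the threshold on the change. Of 15 amino acid permeases aap-9 rose (1.05, adjusted p = 0.00253) and of 18 aminoacyl-tRNA synthetases NCU07082 rose (1.01, adjusted p = 0.0117), against 2.29% of all tested genes, and both calls were lost without day 0 replicate 2. The call of aap-9 was also lost without day 0 replicate 3 and with library totals only. That of NCU07082 was lost under 7 alternatives, namely RLE size factors, library totals only, DESeq2 and leaving out either replicate 1, day 1 replicate 3 or day 0 replicate 2.

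**Figure D4:**
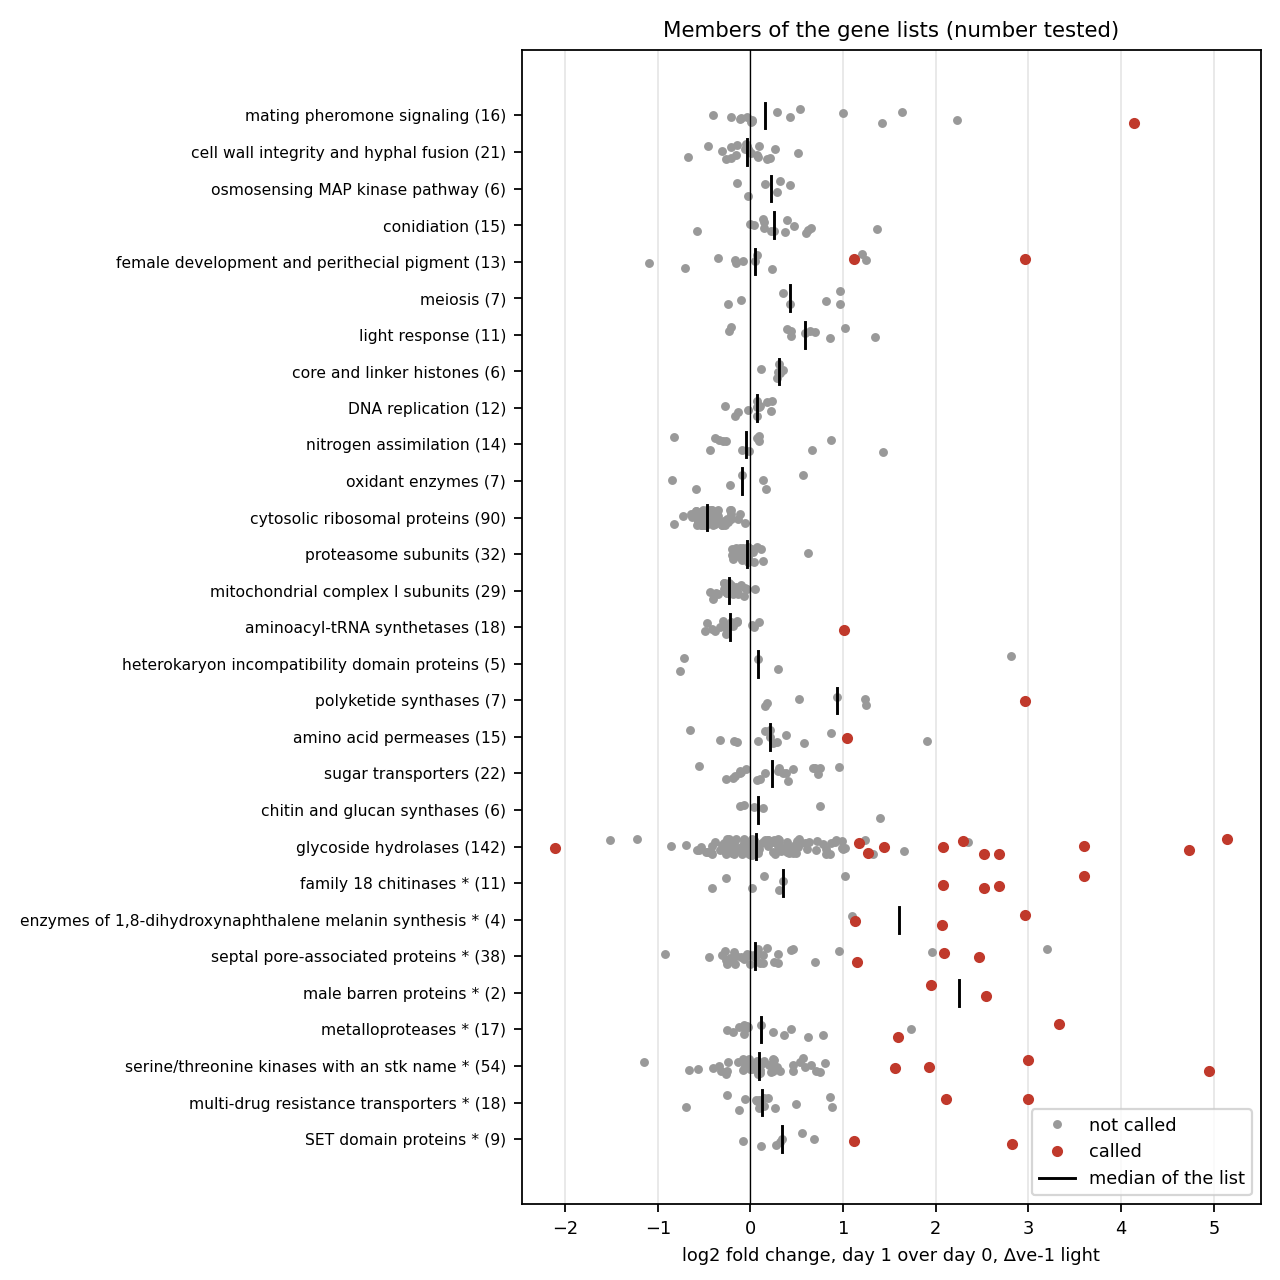
Log2 fold change of day 1 over day 0 in ∆ve-1 in light for each tested member of the gene lists, grey where not called and red where called, with a black tick at the list median and the number tested in brackets. Lists marked with an asterisk are families picked after their calls were seen, and most medians lie within 0.5 of 0 while the melanin enzymes and male barren proteins lie above 1.

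The steps of ∆ve-1 in light and wild type in light were then compared directly. The difference of the steps was called for 1272 genes (13.1%), 470 (4.84%) with a larger and 802 (8.27%) with a smaller or more negative step in ∆ve-1 in light. Of the 222 genes that rose in ∆ve-1 in light, 147 (66.2%) also rose in wild type in light, against 15.4% of all tested genes, and 4 fell there. The 147 made up 9.84% of the 1494 that rose in wild type in light. By the difference of the steps, 38 of the 222 had a larger step in ∆ve-1 in light, 51 a smaller one and 133 were not called. Without day 0 replicate 2, 75 of 116 (64.7%) also rose in wild type in light. In wild type in the dark, 81 of the 222 (36.5%) rose and 1 fell, where 888 of the 9701 tested genes rose and 390 fell. The median change of the 222 was 2.10 in light-grown ∆ve-1 and 1.59 in dark-grown ∆ve-1. It was 2.36 in wild type in light and 0.67 in wild type in the dark. With a group at 0 set to the bound that 3 counts per library allow, these medians were 2.04, 1.58, 2.32 and 0.636. These genes were chosen in ∆ve-1 in light, so that their median there is not a measurement free of that choice. Nor are their counts by the difference of the steps, in which the same libraries enter.

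Some abundant genes that were called higher in ∆ve-1 in light also had a larger step than in wild type in light. Those named here were picked after their values were seen. They had lower levels on day 1 in the wild type than in the mutant. NCU09236 had 2550, 1887 and 2362 CPM on day 1 and 198, 93.6 and 280 CPM on day 0 (3.57, adjusted p = 0.00405), against 5.16 to 10.4 CPM on day 1 and 7.46 to 14.2 CPM on day 0 in wild type in light. Its call was lost without day 0 replicate 2 (adjusted p = 0.0644). NCU10264 had 1444, 1286 and 1467 CPM on day 1 and 135, 118 and 231 CPM on day 0 (3.12, adjusted p = 1.66e-06), and 37.0 to 45.4 CPM on day 1 and 47.3 to 53.5 CPM on day 0 in wild type in light. NCU09791, NCU03775 and NCU05917 rose by 3.57, 3.45 and 3.06, and their steps were larger than in wild type in light by 3.36, 3.59 and 3.24.

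Among annotated genes, wsc-2, listed as a component of the response to wall stress, had a larger step than in wild type in light. It had 69.9, 75.6 and 84.2 CPM on day 1 and 24.4, 25.3 and 27.5 CPM on day 0 (1.57, adjusted p = 1.27e-05), with a difference of 1.23 (adjusted p = 0.00732). The phytochrome gene phy-2 had 11.7, 13 and 15.7 CPM on day 1 and 2.64, 3.8 and 3.67 CPM on day 0 (1.99, adjusted p = 1.17e-08), and its step was smaller than in wild type in light by 1.32 (adjusted p = 0.00122).

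**Figure D5:**
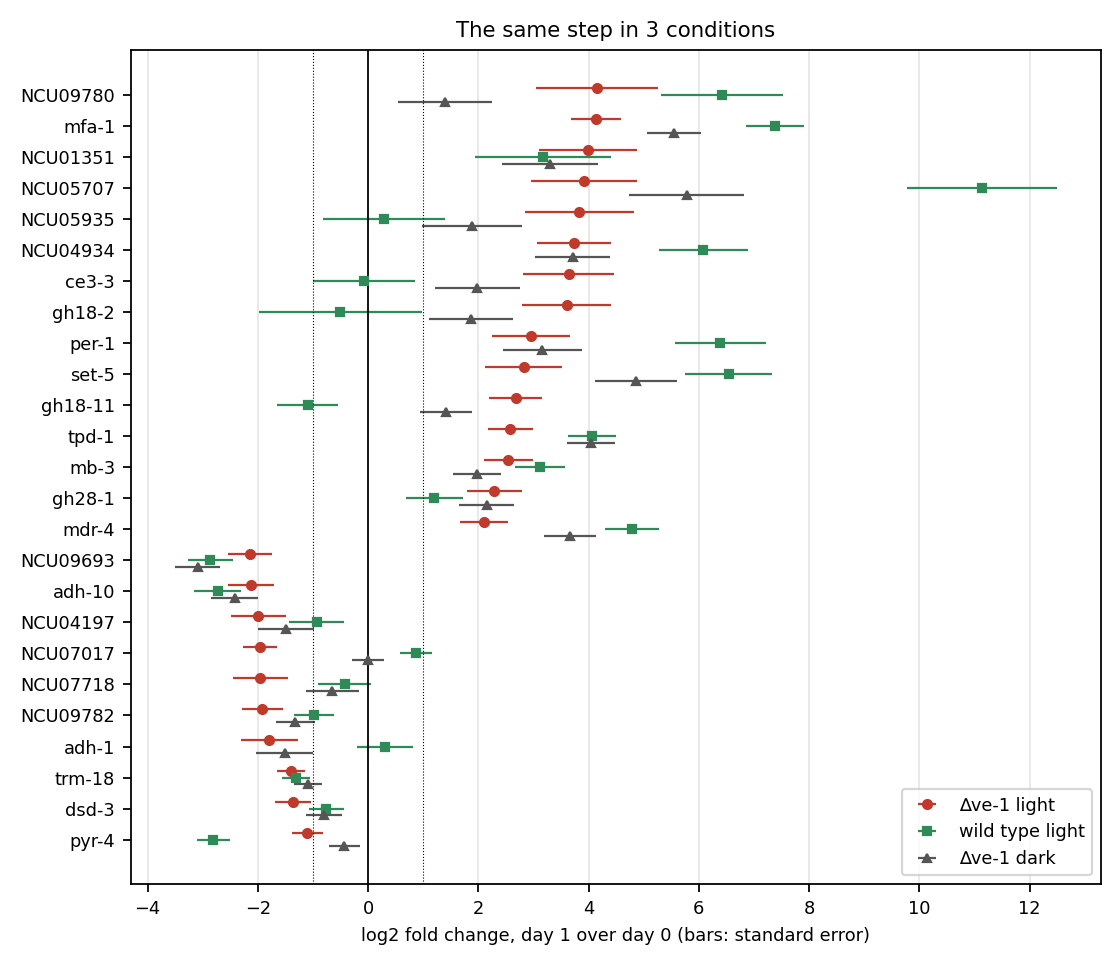
Log2 fold change of day 1 over day 0 with its standard error for the named genes in light-grown ∆ve-1 (red circles), wild type in light (green squares) and dark-grown ∆ve-1 (grey triangles), with dotted lines at 1 and -1. mfa-1, NCU05707, per-1 and set-5 lie further right in wild type in light, and ce3-3 and gh18-11 further right in ∆ve-1 in light.

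Several genes of cell wall integrity and hyphal fusion differed in their step between the strains. None of the 21 was called by edgeR or DESeq2 in light-grown ∆ve-1, with 5 at an unadjusted p under 0.05, whereas 7 (mek-1, adv-1, ham-6, ham-7, ham-8, ham-9 and the plasma membrane fusion gene NCU09337) had a smaller step than in wild type in light (8.27% of all tested genes) and 5 a smaller step than in dark-grown ∆ve-1 (2.49% of all tested genes). Without day 0 replicate 2 these counts were 6 and 3. adv-1, a transcription factor gene needed for fusion and sexual development, had 28.7, 35.2 and 27.2 CPM on day 1 and 29.6, 29.1 and 27.4 CPM on day 0 in ∆ve-1 in light, against 354 to 393 CPM on day 1 and 89.5 to 103 CPM on day 0 in wild type in light. The difference of the adv-1 steps was -1.85 from wild type in light (adjusted p = 4.9e-06) and -1.69 from dark-grown ∆ve-1 (adjusted p = 0.000102). NCU09337 had 19.8, 22.2 and 21.0 CPM on day 1 and 20.4, 20.8 and 18.9 CPM on day 0, with a difference of -3.10 from wild type in light (adjusted p = 7.6e-14).

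Several genes of conidiation, the making of asexual spores, also differed in their step between the strains. None of the 15 was called by edgeR or DESeq2 in light-grown ∆ve-1, with 1 at an unadjusted p under 0.05, and 6 (fl, csp-1, csp-2, acon-3, eas and con-13) had a step above that of wild type in light, against 4.84% of all tested genes, and 2 (ccg-9 and ccg-14) a step below it, against 8.27%, or 5 and 2 without day 0 replicate 2. eas, which encodes the hydrophobin of the conidial rodlet layer, was at 19807, 14517 and 17082 CPM on day 1 and at 11169, 18351 and 14568 CPM on day 0, and these ranges overlapped. Wild-type eas in light had 1789 to 4872 CPM on day 1 and 30108 to 67604 CPM on day 0, and the difference of the steps was 4.36 (SE 1.14, adjusted p = 0.00352).

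Of 11 light-response genes none was called by edgeR or DESeq2 in light-grown ∆ve-1, with 7 at an unadjusted p under 0.05, and 4 (al-1, al-2, al-3 and phr) had a step above that of wild type in light, against 4.84% of all tested genes, and none a step below it, or 3 and 0 without day 0 replicate 2. al-2, the phytoene synthase gene of carotenoid synthesis, had 574, 596 and 551 CPM on day 1 and 368, 356 and 223 CPM on day 0, against 120 to 236 CPM on day 1 and 618 to 915 CPM on day 0 in wild type in light. The difference of the al-2 steps was 3.03 (SE 0.376, adjusted p = 6.0e-09).

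Set against dark-grown ∆ve-1, the step differed in 313 genes (3.23%), 71 (0.732%) with a larger and 242 (2.49%) with a smaller or more negative step in light. The count with a larger step was 30 with only the groups compared and 41 with library totals only, and leaving out 1 library at a time gave 34 (without dark day 1 replicate 3) to 126 (without light day 0 replicate 3). Of the 222 genes that rose in light, 137 (61.7%) also rose in the dark, against 8.94% of all tested genes, and 0 fell. The 137 made up 15.8% of the 867 that rose in the dark. By the difference of the steps, 14 of the 222 had a larger step in light and 5 a smaller one. The 222 were chosen by their step in the same light libraries that enter this difference, so these counts are not free of that choice. Of the 43 genes that fell in light, 25 (58.1%) fell in dark-grown ∆ve-1, against 2.13% of all tested genes. In wild type in light 19 (44.2%) fell, against 6.55% of all tested genes. In wild type in the dark, 2 of the 43 (4.65%) fell, where 390 of the 9701 tested genes fell. Without day 0 replicate 2, 75 of 116 genes that rose in light also rose in the dark, and 8 of 14 that fell also fell there.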

How the data were processed

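The 84 libraries came from wild type and ∆ve-1 females in light and in the dark on 7 days, 3 per group. The authors counted strand-specific, poly-A selected paired reads per gene on the NC12 assembly and deposited raw counts, with no normalization. The counts of 10590 genes were read as deposited. Groups followed the sample labels. Genes with low counts were removed by filterByExpr (9701 remained), libraries were scaled by the trimmed mean of M-values, and 1 edgeR quasi-likelihood model (edgeR 4.0.16, limma 3.58.1, R 4.3.3) was fitted over 28 groups. Contrasts gave the step in each condition and the differences between steps, with Benjamini-Hochberg adjustment over all tested genes. The script was tested on simulated data. Names came from RefSeq (1118 genes) and from the study's supplementary tables (1911 genes), in part tables of changed genes, so lists made by name are not neutral.

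The members and lists were chosen with earlier results of these data known. Named genes were those called with no overlap between days and at least 10 CPM in the higher group: the 6 highest and 6 lowest changes, and the 10 highest and 10 lowest with a symbol. For each difference between steps the 4 highest and 4 lowest called genes with at least 10 CPM in a group were named, as were ve-1, mfa-1, list members and called members of lists made by name. Families, wsc-2, phy-2 and the abundant genes with larger steps were picked after their values were seen.

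Alternatives were other size factors, DESeq2 1.42.0, no filter, only the groups compared, a replicate block, the adjusted p alone and each library left out in turn.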

Additional observations from a re-analysis of the deposited data

Results flagged for a closer look

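The step of light-grown ∆ve-1 differed from that of another condition, by the test of the difference itself (edgeR's quasi-likelihood test), in 1272 genes against wild type in light and in 313 genes against dark-grown ∆ve-1. The 4 genes with the highest and the 4 with the lowest difference are given for each, and with levels near 0 the fitted difference depends on how zeros are handled.

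Against wild type in light the highest differences were in genes with a lower level on day 1 than on day 0 in the wild type. The metalloprotease gene mpr-9 had 70.9, 47.1 and 53.1 CPM on day 1 and 4.89, 17.9 and 28.7 CPM on day 0 in light-grown ∆ve-1, against 0.340, 0.385 and 0 CPM on day 1 and 66.5, 15.8 and 58.3 CPM on day 0 in wild type (difference 9.27). NCU08649 had 17.1 to 21.4 CPM on day 1 and 1.88 to 3.55 CPM on day 0 in the mutant, with 0 to 0.055 CPM on day 1 and 0.723 to 3.10 CPM on day 0 in wild type (9.12). The cytochrome P450 gene cyp450-29 had 6.18 to 10.6 CPM on day 1 and 2.20 to 9.40 CPM on day 0 in the mutant, against 3.68 to 6.98 CPM on day 1 and 457 to 1136 CPM on day 0 in wild type (7.52). NCU09734 had 445 to 504 CPM on day 1 and 227 to 727 CPM on day 0 in the mutant, with 14 to 36.3 CPM on day 1 and 871 to 2941 CPM on day 0 in wild type (6.79).

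The lowest differences were in genes at or near 0 on day 0 in wild type. NCU05530 had 47.8 to 64.6 CPM on day 1 and 1.98 to 23.5 CPM on day 0 in light-grown ∆ve-1, and 43.6 to 75.0 CPM on day 1 with no count on day 0 in wild type (-10.46). NCU04031 had 0.192 to 0.679 CPM on day 1 and 0 to 0.376 CPM on day 0 in the mutant, and 13.1 to 26.3 CPM on day 1 with no count on day 0 in wild type (-9.43). stk-56 had 2.72 to 5.00 CPM on day 1 and 0.321 to 0.878 CPM on day 0 in the mutant, and 30.7 to 48.0 CPM on day 1 with no count on day 0 in wild type (-9.39). sms-2, which encodes an Argonaute protein of meiotic silencing, had 1.36, 6.13 and 1.47 CPM on day 1 and 0.314, 0 and 0.0573 CPM on day 0 in the mutant, and 327 to 459 CPM on day 1 and 0 to 0.0573 CPM on day 0 in wild type (-9.20). The calls of NCU04031 and sms-2 were lost without ∆ve-1 light day 0 replicate 1.

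Against dark-grown ∆ve-1 the highest differences were in ce9-1 (3.8), aap-23 (3.45), ars-1 (2.83) and NCU09691 (2.66). ce9-1, an N-acetylglucosamine-6-phosphate deacetylase gene, had 106 to 137 CPM on day 1 and 36.1 to 88.2 CPM on day 0 in light, against 11.8 to 24.7 CPM on day 1 and 46.3 to 233 CPM on day 0 in the dark. aap-23, an amino acid permease gene, had 189, 237 and 832 CPM on day 1 and 103 to 118 CPM on day 0 in light, against 2.95, 40.1 and 2.67 CPM on day 1 and 20.2 to 64.3 CPM on day 0 in the dark. The calls of aap-23, ars-1 and NCU09691 were lost under 13, 11 and 9 alternatives.

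The lowest differences from dark-grown ∆ve-1 were in genes with more transcript on day 1 than on day 0 in the dark. They were NCU05572 (-7.57), NCU06514 (-6.10), NCU07204 (-6.08) and NCU08085 (-5.94). NCU06514 had 0.253 to 0.340 CPM on day 1 and 0.161 to 0.287 CPM on day 0 in light, and 10.7 to 21.0 CPM on day 1 and 0.108 to 0.215 CPM on day 0 in the dark. The call of NCU05572 was lost under 3 alternatives, and those of NCU07204 and NCU08085 without ∆ve-1 light day 0 replicate 1 (adjusted p = 0.0508 and 0.107).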

How the results depend on the processing

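With the adjusted p alone, the step had 592 calls in light-grown ∆ve-1, 4182 in wild type in light and 2315 in dark-grown ∆ve-1, and the difference from wild type in light had 1922. Leaving out each library in turn gave 130 (without day 0 replicate 2) to 277 calls for the step, 1069 to 1347 for the difference from wild type in light, 228 to 401 for the difference from dark-grown ∆ve-1, 1960 to 2209 for the wild-type step and 853 to 1339 for the dark step. With only the groups compared, the dark step had 669 calls. Of 50 named calls for the step in light-grown ∆ve-1, 24 were kept under every alternative run and 26 were lost under at least 1. Of 16 named differences of steps, 8 were kept and 8 lost under at least 1, and 0 of either kind were reversed. Depth limits the genes at a few counts, such as gh11-2 and gh93-1.

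Nothing in the labels pairs libraries by number, and in no condition were all 3 correlations of the deviations of same-numbered libraries between day 1 and day 0 over 0.1. They were 0.098, 0.106 and 0.017 in light-grown ∆ve-1, -0.033, 0.313 and 0.065 in dark-grown ∆ve-1 and 0.029, 0.244 and 0.283 in wild type in light. In light-grown ∆ve-1 each library correlated best with its own number, a hint from the data that was not seen for every library of the other conditions. A replicate block gave 288 calls for the step in the 28-group fit, against 265 without it, and 390 with only the groups compared, and 667 for the dark step with only the groups compared.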
